A study of Mus musculus with 11 samples.

Results

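The 9 genes described here carry interferon signals into bone marrow endothelial cells (ECs). They are the interferon-gamma receptor chains Ifngr1 and Ifngr2, the type I interferon receptor chains Ifnar1 and Ifnar2, the kinase Jak1, and the transcription factors Stat2, Irf1, Irf7 and Irf9. They were chosen by name for their place in the pathway. All 9 had a row in the count table, and all 9 were among the 11948 genes that passed the filter on low counts, out of 23463 named rows kept. The study sorted CD31hi EMCNhi ECs, a gate that marks type H capillaries in healthy bone, from BALB/c mice bearing the 4T1.2 mammary cancer line marked with red fluorescent protein, and sequenced them by a low-input whole-transcriptome protocol. The question was how tumour growth in bone alters the marrow vasculature.

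Marrow infiltrated by fluorescent tumour gave 3 libraries (met), adjacent marrow free of tumour gave 6 (non-met), and age-matched BALB/c mice without tumour gave 2 (control). The labels name no engineered allele and no drug in any group. Libraries came from pools of mice, and by the study's methods a pool could be a single mouse. There were 4 pools of burdened mice and 2 of controls, and 3 of the burdened pools gave both met and non-met ECs. Pool 2 gave met 1 with non-met 2 and 6, pool 3 gave met 2 with non-met 3, pool 4 gave met 3 with non-met 4, and pool 1 gave only non-met 1 and 5. The controls were thus always other animals than the burdened mice, and 2 libraries of 1 pool do not add animals. In bulk libraries such as these, fewer cells that express a gene and less RNA per cell cannot be told apart.

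Type I interferons bind a receptor made of Ifnar1 and Ifnar2, whose kinases Tyk2 and Jak1 phosphorylate Stat2, which joins Irf9 in the ISGF3 complex that switches on antiviral genes. Interferon-gamma binds Ifngr1 and Ifngr2, whose kinases Jak1 and Jak2 start the signal that raises genes such as Irf1, a transcription factor that in turn raises guanylate-binding proteins and antigen-presentation genes. Irf7 amplifies the type I response and is itself an interferon target in many cells. Endothelium is a known responder to both kinds of interferon, and interferon-gamma is known for restraining vessel growth.

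Library depth ranged from 733342 counts in non-met 4 to 19539761 in control 1. Endothelial markers were abundant in every library, with 10 markers summing to between 7765 and 15090 CPM (reads of a gene scaled to the TMM-adjusted size of its library). The main test called 3 of the 10 higher in met than in non-met ECs, where it called 0.427% of all tested genes, and 4 higher and 1 lower in met than in control ECs, where it called 1.2%. Limma-trend called none of these, and the gene called lower, Kdr, had met values between those of the 2 controls. The sort was designed to leave out leukocytes and red cells by their CD45 and Ter-119 staining. Pan-leukocyte markers summed to 19.9 and 46.0 CPM in the controls, 0.53 to 391 CPM in non-met and 0.881 to 39.0 CPM in met ECs. Ptprc, the gene of CD45, was read only in control 1, at 12.47 CPM, and met 2, at 38.85 CPM. B cell markers summed to at most 107 CPM and erythroid markers to at most 205 CPM in any library. Granulocyte markers summed to 77.8 and 359 CPM in the controls, 397 to 5104 CPM in non-met and 35.6 to 204 CPM in met ECs, with 9 of 10 markers above 3 reads in some library. Of these, S100a8 was called lower in met than in non-met ECs by limma-trend (log2 fold change -9.78 by voomLmFit, limma-trend adjusted p = 0.022) and not by voomLmFit (adjusted p = 0.067). Monocyte and macrophage markers summed to at most 503 CPM, and Ccr2 had no read in any library. Of 10 plasmacytoid dendritic cell markers, Siglech, Klk1, Pacsin1 and Cox6a2 had no read in any library, and the list summed to 461 to 1301 CPM, of which 276 to 1074 CPM was Tcf4, a gene that many cells express. Of 10 T and NK cell markers, Cd3d, Cd4, Gzma and Klrb1c had none, and the list summed to at most 88.7 CPM. Mammary epithelial markers summed to at most 19.5 CPM in the controls, 139 CPM in non-met and 72.8 CPM in met ECs. Stromal and osteolineage markers, with Cxcl12 the larger part in 10 of 11 libraries, summed to 3997 and 10730 CPM in the controls, 1221 to 3821 CPM in non-met and 442 to 2444 CPM in met ECs. Cxcl12, a chemokine of marrow niche cells that endothelium also makes, was called lower in met than in control ECs by voomLmFit (adjusted p = 2.2e-08) and limma-trend (adjusted p = 0.017), and lower in non-met than in control ECs by voomLmFit (adjusted p = 1.6e-09) but not limma-trend (adjusted p = 0.12). Megakaryocyte and platelet markers summed to 0 and 31.3 CPM in the controls, 0 to 57.8 CPM in non-met ECs and at least 42.6 CPM in each met library, and 1 of them, Itga2b, was called higher in met than in control ECs by voomLmFit (adjusted p = 0.040) and not by limma-trend (adjusted p = 0.70). The part that such cells played in the values of the 9 genes was not tested.

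Among the members, Ifnar2, Ifnar1 and Ifngr2 lie in this order on the plus strand of chromosome 16, within 191225 bases between positions 91372783 and 91564007 of mouse build GRCm38. Ifngr1 lies at chr10:19591949-19610229 on the plus strand and Stat2 at chr10:128270498-128292853, also on the plus strand and overlapping Apof on the same strand. Jak1 lies at chr4:101151974-101265282 on the minus strand and overlaps Raver2 on the opposite strand. Whether the counting used strand, which could separate Jak1 from Raver2 but not Stat2 from Apof, was not given in the sources used here. How reads in these 2 overlaps were assigned is therefore not known. Irf1 lies at chr11:53770014-53778374 on the plus strand, Irf7 at chr7:141263183-141266499 on the minus strand and Irf9 at chr14:55603985-55610030 on the plus strand, with no gene overlapping them in the annotation.

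Promoter sequences are shown for the 2 transcription factor genes whose window held a match to a motif of the pathway and whose levels in met ECs did not overlap the controls. Each window runs from 250 bases before the annotated start to 50 bases after it, in build GRCm38.p6, and comes from RefSeq. All 9 members matched an entry of that table, with 11 windows in all. A pair of motifs was searched on both strands, TTCNNNGAA, the letters of the gamma-activated site bound by STAT dimers, and GAAANNGAA, the core letters of the response element bound by IRFs. They do not overlap each other in these windows. Capitals mark the matches.
Irf1, chr11:53769764-53770063, plus strand: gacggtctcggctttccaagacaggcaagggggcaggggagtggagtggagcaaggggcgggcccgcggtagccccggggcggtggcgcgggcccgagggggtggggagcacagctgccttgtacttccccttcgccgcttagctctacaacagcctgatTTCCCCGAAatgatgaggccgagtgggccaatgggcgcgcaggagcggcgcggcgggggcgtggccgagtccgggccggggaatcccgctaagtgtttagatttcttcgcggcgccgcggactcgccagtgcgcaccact
Stat2, chr10:128270248-128270547, plus strand: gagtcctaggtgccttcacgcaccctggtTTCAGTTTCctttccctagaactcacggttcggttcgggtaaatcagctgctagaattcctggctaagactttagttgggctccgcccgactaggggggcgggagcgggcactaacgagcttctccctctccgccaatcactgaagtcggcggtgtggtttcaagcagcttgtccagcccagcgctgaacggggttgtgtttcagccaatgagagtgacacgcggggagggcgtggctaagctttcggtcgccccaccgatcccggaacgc
In Irf1 the gamma-activated letters lay 90 to 82 bases before the start. In Stat2 the IRF core lay on the minus strand, 221 to 213 bases before the start. Ifnar2 and Ifnar1 each held 1 match to the gamma-activated letters, while the windows of Ifngr1, Ifngr2, Jak1, Irf7 and Irf9 and the second window of Irf1 held neither motif. Among 32851 windows of the same length in the table, 8.30% held TTCNNNGAA and 8.56% held GAAANNGAA. A match describes letters only, and these libraries did not measure binding.

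The 9 genes spanned a wide range of level. On a per-length scale, log2 RPKM (CPM divided by the counted length of the gene) with a prior count of 2, Jak1 had the highest median over the 11 libraries at 7.33, followed by Ifngr1 at 6.23, Irf1 at 5.65, Ifnar2 at 5.48, Stat2 at 5.27, Irf9 at 5.12, Irf7 at 4.48, Ifnar1 at 4.34 and Ifngr2 at 2.79. The top of this order was firmer than the rest. Jak1 stood above the gene next to it by group median in both controls, in 5 of 6 non-met and in all 3 met libraries. It was not always the highest member. In non-met 5 Ifngr1 exceeded it, at 6.89 beside 6.57, and in non-met 4 Ifnar2 did, at 6.42 beside 6.17. Ifngr2 was lowest by median in non-met and met, but in the controls its median of 4.79 lay above Irf9, Stat2, Irf7 and Ifnar1. Neighbours in the middle of the order changed places between libraries, as in non-met ECs, where Stat2 exceeded Irf9 in 3 of 6 libraries and Irf9 exceeded Irf1 in 2 of 6.

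The spread within groups differed as widely as the level. The pooled within-group SD of log2 CPM was 0.45 for Jak1, 0.59 for Irf1, 1.12 for both Ifngr1 and Stat2, 1.63 for Ifnar1, 1.83 for Irf7, 1.86 for Irf9, 2.30 for Ifnar2 and 3.21 for Ifngr2. The median over all tested genes was 2.60, so 8 of the 9 members varied less than the typical gene. Of the 99 member values, 6 rested on 3 reads or fewer, 5 of them in Ifngr2 and 1 in Ifnar2. Such dropouts were common in these low-input libraries, since 79.9% of tested genes had at least 1 library at 3 reads or fewer and 41.1% had 5 or more.

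**Figure D1:**
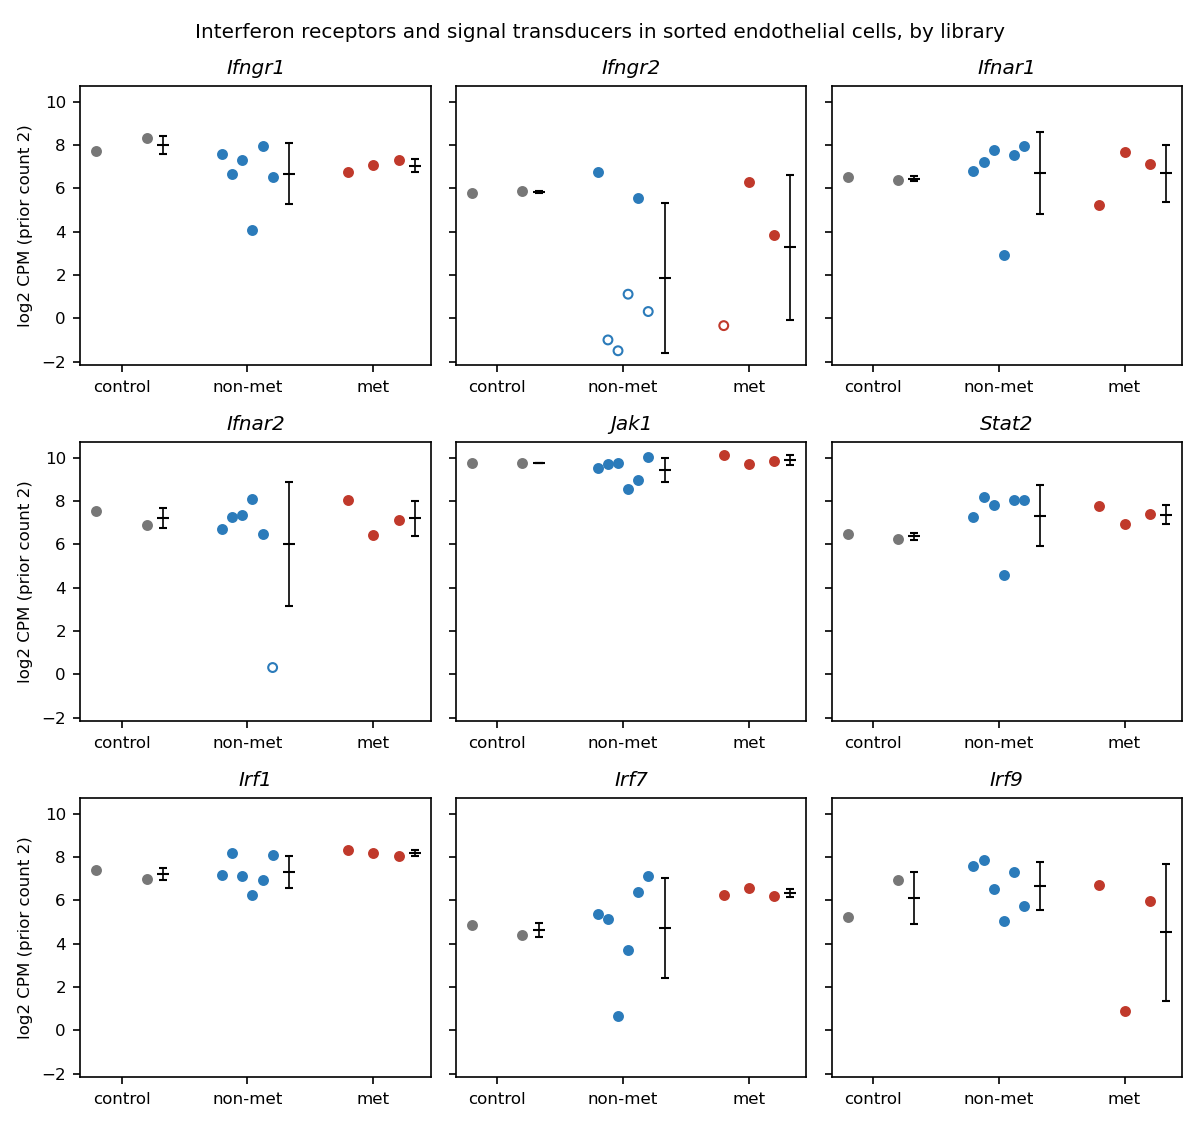
Log2 CPM (prior count 2) of the 9 genes in each library, by group, with the group mean and SD as a black bar and open circles for values of 3 reads or fewer. Jak1 and Irf1 are tightly placed in every group, with a within-group SD of 0.45 and 0.59, while 5 of the 11 Ifngr2 values rest on 3 reads or fewer and the third met value lies between these and the controls.

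Across the members, no difference between groups passed the test. The main test was limma's voomLmFit with TMM scaling and sample weights, with p-values adjusted by Benjamini-Hochberg over all 11948 genes and called below 0.05. It called 0 of 9 members in met against non-met, where it called 51 genes or 0.427% of those tested, 0 of 9 in met against control, where it called 143 genes or 1.2%, and 0 of 9 in non-met against control, where it called 76 genes or 0.636%. With the mouse pool as a block, met against non-met gave 27 genes and still 0 members. At an unadjusted p under 0.05 voomLmFit had 1 of the 27 member comparisons (Ifngr2 in non-met against control, where 16.99% of all tested genes had such a p, beside 7.24% in met against non-met and 14.05% in met against control), and limma-trend, edgeR's quasi-likelihood test and DESeq2 had 0 and called no member. With so small a share of all genes called, 0 of 9 does not set the members apart from other genes, and it does not show that they were level.

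The precision behind these zeros differed between members. For Jak1 the limma-trend interval was narrow, from -0.19 to 1.14 on the log2 scale in met against non-met and from -0.71 to 1.01 in met against control, so changes larger than these bounds lay outside it. For Ifngr2 the interval ran from -3.32 to 6.11 and from -8.65 to 3.52 in the same comparisons, which covers large changes in either direction. In met against non-met the median voomLmFit log2 fold change of the members was 0.35, beside 0.08 over all tested genes. In met against control it was 0.10 beside -0.09, and in non-met against control 0.03 beside -0.33.

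**Figure D2:**
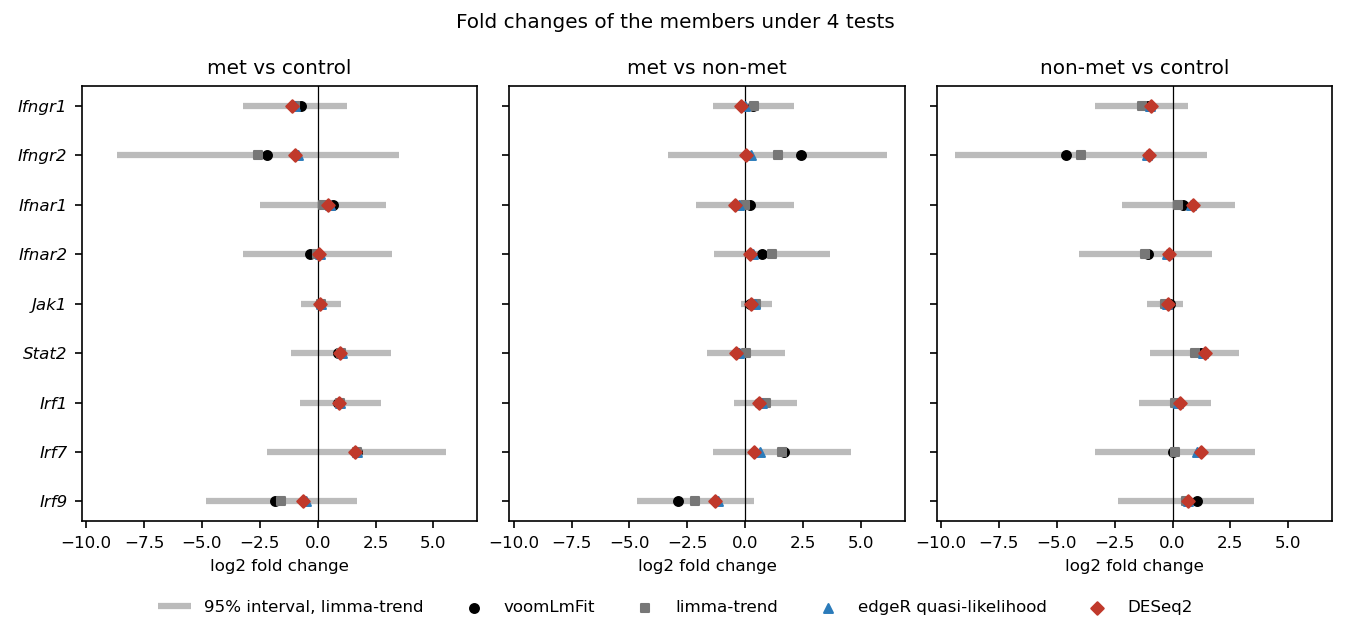
Log2 fold changes of the 9 genes in the 3 comparisons under 4 tests (symbols), with the 95% interval from limma-trend as a grey bar. Every grey bar crosses 0, the bars of Jak1 are the shortest, and the 4 tests differ most for Ifngr2, from -4.61 to -1.01 in non-met against control.

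Of the receptor chains, Ifngr1, the ligand-binding chain of the interferon-gamma receptor, was read in every library. It stood at 213 and 317 CPM in the controls and at 106, 136 and 159.7 CPM in met ECs. In non-met ECs it ranged from 16.3 to 248 CPM with a median of 129 CPM. All 3 met libraries lay below both controls, while non-met overlapped both groups. Ifngr1 was the 1 member whose met values all lay below the control values, a pattern that 12.3% of tested genes shared. The voomLmFit log2 fold change of met against control was -0.70 (SE 0.56, adjusted p = 0.63), and an exact permutation test of the log2 CPM gave p = 0.10, the smallest that 3 against 2 libraries allow. Over 25 alternatives this fold change ran from -1.13, without control 1, to -0.03, with a term for 2 library sets (see processing). The voomLmFit log2 fold change of non-met against control was -1.05 (SE 0.68, adjusted p = 0.40). The low value of 16.3 CPM came from non-met 4 and rested on 9 reads.

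Ifngr2, the signalling chain of the same receptor, ranged from levels near the controls to almost no reads. The controls had 55.4 and 58.7 CPM, from 1134 and 332 reads. Among non-met libraries 109 CPM in non-met 1 and 46.1 CPM in non-met 5 contrasted with 1, 0, 1 and 1 reads in non-met 2, 3, 4 and 6. Met 1 had 1 read, met 2 had 79.0 CPM and met 3 had 14.0 CPM. Both non-met libraries with Ifngr2 came from pool 1, and the 4 without it came from pools 2, 3 and 4. In pool 3 the gene had 0 of its reads in non-met 3, which allows up to 0.933 CPM, and 417 reads in met 2 of the same mice. Its log2 fold change in non-met against control was -4.61 (SE 1.46, voomLmFit adjusted p = 0.12), and edgeR and DESeq2 gave -1.11 and -1.01 with adjusted p of 1.0 in both. Over 25 alternatives the adjusted p of this comparison ranged from 0.095 to 1.0. In met against non-met the estimate was 2.40 (SE 2.20, adjusted p = 0.82), and it turned to -0.49 without met 2.

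The balance of the 2 interferon-gamma chains was compared within each library. The log2 RPKM of Ifngr1 minus that of Ifngr2 was 1.91 and 2.41 in the controls. It was 0.80 and 2.40 in non-met 1 and 5, 0.76 in met 2 and 3.46 in met 3. The other 5 libraries had at most 1 read of Ifngr2 beside 9 to 693 reads of Ifngr1, and no size of the gap is given for them. In all 6 libraries where both chains were above 3 reads, Ifngr1 exceeded Ifngr2 per unit length.

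Ifnar1, the chain of the type I receptor that binds Tyk2, stood at 92.6 and 82.3 CPM in the controls. In non-met ECs it ranged from 7.24 to 245 CPM with a median of 168 CPM, and in met ECs it stood at 37.0, 206 and 142 CPM. In non-met 5 of 6 libraries and in met 2 of 3 lay above both controls, and 1 of each lay below, so that the groups overlapped. The log2 fold changes were 0.65 (SE 0.85) in met against control, 0.47 (SE 0.88) in non-met against control and 0.19 (SE 0.91) in met against non-met, with voomLmFit adjusted p of 0.79, 0.75 and 0.98. Met against control was 0.026 without met 2 and 0.15 without met 3, and non-met against control ran from 0.19 to 0.85 with each library left out in turn. The low non-met value was again that of non-met 4, with 4 reads.

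Ifnar2, the other chain of the type I receptor, which binds Jak1, stood at 188 and 119 CPM in the controls and at 262, 85.3 and 142 CPM in met ECs. Among non-met libraries it ranged from 0.888 to 271 CPM with a median of 129 CPM. The groups overlapped throughout. The lowest value was 1 read in non-met 6, a library in which Ifnar1 had 276 reads. In non-met 4 the chains were the other way round, with 150 reads of Ifnar2 and 4 of Ifnar1. The log2 RPKM of Ifnar1 minus that of Ifnar2 lay between -2.16 and 0.12 in 8 libraries and at -3.96 in met 1, and it is not given for non-met 4 and 6, where 1 chain had 4 reads or fewer. Over the 11 libraries the 2 chains had a Pearson r of -0.46 (Spearman rho -0.69, and r -0.65 without the 2 libraries farthest from the median of Ifnar2), although their genes are neighbours on chromosome 16. This describes 11 libraries that differ in depth, 9 of which share 4 pools.

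**Figure D3:**
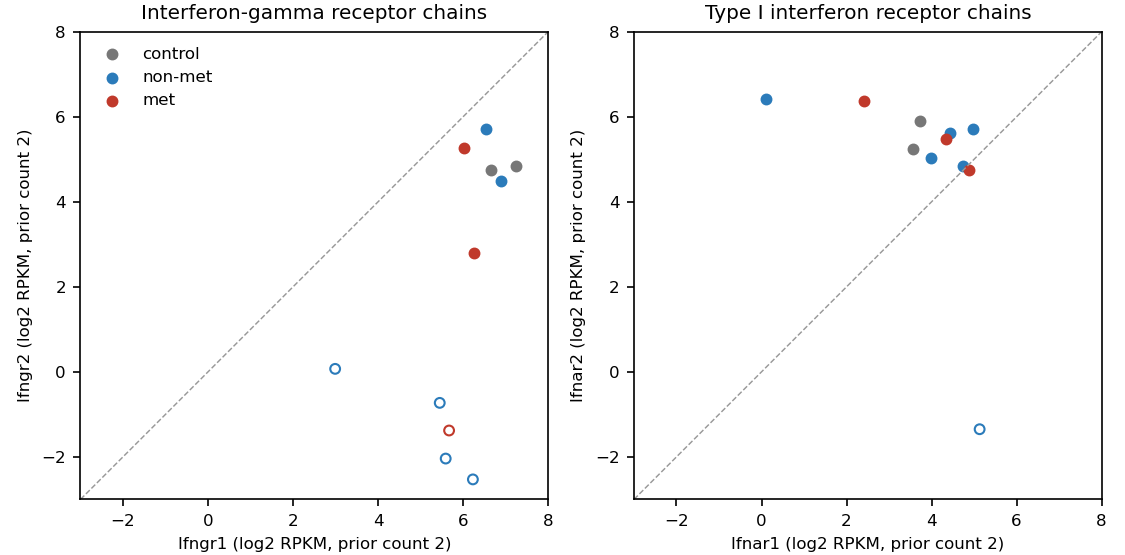
Log2 RPKM (prior count 2) of both chains of the interferon-gamma receptor (left) and of the type I receptor (right) in each library, coloured by group, with a dashed line of equal level. Open circles are libraries with 3 reads or fewer of a chain. Ifngr1 exceeds Ifngr2 by 0.76 to 3.46 in the 6 filled libraries of the left panel.

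Jak1, the kinase shared by both receptors, was the most abundant and the steadiest member. It stood at 856 and 866 CPM in the controls and at 1124, 836 and 932 CPM in met ECs. Non-met libraries ranged from 380.0 to 1047 CPM with a median of 791 CPM. Met and control values interleaved, and the 2 lowest values were those of non-met 4 and 5. The log2 fold change was 0.10 (SE 0.08) in met against control, -0.12 (SE 0.15) in non-met against control and 0.22 (SE 0.17) in met against non-met, with voomLmFit adjusted p of 0.64, 0.63 and 0.79.

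Stat2, the transcription factor of the ISGF3 complex that brings the activation domain, stood at 89.8 and 76.1 CPM in the controls. It stood at 220.3, 120.3 and 169.6 CPM in met ECs, all above both controls. In non-met ECs it ranged from 23.5 to 292 CPM with a median of 245 CPM, and 5 of 6 libraries lay above both controls. The log2 fold change was 0.88 (SE 0.73, adjusted p = 0.65, exact permutation p = 0.20) in met against control and 1.24 (SE 0.76, adjusted p = 0.38) in non-met against control by voomLmFit. Without non-met 4, whose value of 23.5 CPM rested on 13 reads, the latter was 1.47, and without non-met 2 it was 0.92. Between met and non-met the sign was not stable, at -0.36 (SE 0.67) by voomLmFit and 0.04 by limma-trend.

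Irf1, the interferon-gamma-responsive transcription factor, stood at 168 and 129 CPM in the controls and at 318, 292 and 267 CPM in met ECs. In non-met ECs it ranged from 76.0 to 292 CPM with a median of 143 CPM. Every met library lay above both controls, while 2 non-met libraries, 2 and 6, reached the met range. These 2 came from pool 2, which also gave met 1. The log2 fold change was 0.87 (SE 0.46, voomLmFit adjusted p = 0.41) in met against control and 0.61 (SE 0.52, adjusted p = 0.82) in met against non-met. Exact permutation tests of the log2 CPM gave p = 0.10 in the first comparison, the smallest possible, and p = 0.083 in the second, where 84 splits allow 0.0119. The test split libraries without regard to pools, although met and non-met libraries share pools, so its p does not measure the spread between pools. The sign was positive in both comparisons under every alternative tried, from 0.73 to 1.55 against control and from 0.48 to 1.08 against non-met.

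Irf7, the amplifier of the type I response, stood at 28.9 and 21.1 CPM in the controls and at 75.8, 94.0 and 73.2 CPM in met ECs, so that all met libraries lay above both controls. Non-met libraries ranged from 1.24 to 140.4 CPM with a median of 38.2 CPM. They overlapped both other groups, and their lowest value, in non-met 3, rested on 4 reads. The log2 fold change was 1.72 (SE 1.41, voomLmFit adjusted p = 0.64) in met against control, with a geometric mean 3.23 times that of the controls and an exact permutation p of 0.10. It was 1.69 (SE 1.21, adjusted p = 0.78) in met against non-met, 0.90 without non-met 3 and 2.36 without non-met 6, 0.64 by edgeR and 0.40 by DESeq2. It was 0.03 (SE 1.56, adjusted p = 0.99) in non-met against control, where the sign changed with the setting. The spread in met ECs was small, with an SD of 0.19 on the log2 scale (n = 3), beside 2.30 in non-met ECs (n = 6).

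Irf1, Irf7 and Stat2 were thus the 3 of 9 members whose met values all lay above the control values. Of all tested genes, 8.43% showed this pattern. In met against non-met 0 of 9 members had all met values above or below all non-met values, as 1.54% and 0.444% of tested genes did, and in non-met against control 0 of 9 had all non-met values above or below both controls, as 1.26% and 5.03% did. In the exact permutation test over all genes the smallest adjusted p that any gene reached was 0.947 in met against control, so this test could call nothing there.

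Irf9, the DNA-binding part of ISGF3, had another pattern. It stood at 37.5 and 123 CPM in the controls, ranged from 32.6 to 232 CPM with a median of 125 CPM in non-met ECs, and stood at 103, 1.52 and 63.0 CPM in met ECs. The groups overlapped, and 1 library decided the estimate. Met 2 had 8 reads of Irf9 beside 635 of Stat2 and 1543 of Irf1. The log2 fold change of met against non-met was -2.88 (SE 1.70, voomLmFit adjusted p = 0.75), and without met 2 it was -0.79. That of met against control was -1.84 (SE 1.65, adjusted p = 0.67), and without met 2 it was 0.27.

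Libraries from the same mice allow a closer look. In all 3 pools with both regions, the met library had more Irf1 than the mean of its non-met partners, by 0.17, 1.04 and 1.81 on the log2 CPM scale in pools 2, 3 and 4. Irf7 was higher in met by 0.11, 5.88 and 2.50, although in pool 2 the met value lay between the 2 non-met values. In pools 3 and 4 the non-met value of Irf7 rested on 4 and 7 reads, so these sizes are uncertain. For Ifngr2 the non-met partners had at most 1 read in all 3 pools, beside 1, 417 and 122 reads in met, so that no size of the difference is given. The other 6 members went both ways among the pools, Irf9 for example by -0.11, -5.64 and 0.94, where the met value of pool 3 rested on 8 reads. A sign test over 3 pools cannot pass 0.05, and none is given. In pool 4 the partner was non-met 4, the shallowest library, and 8 of 9 members were higher in met there.

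**Figure D4:**
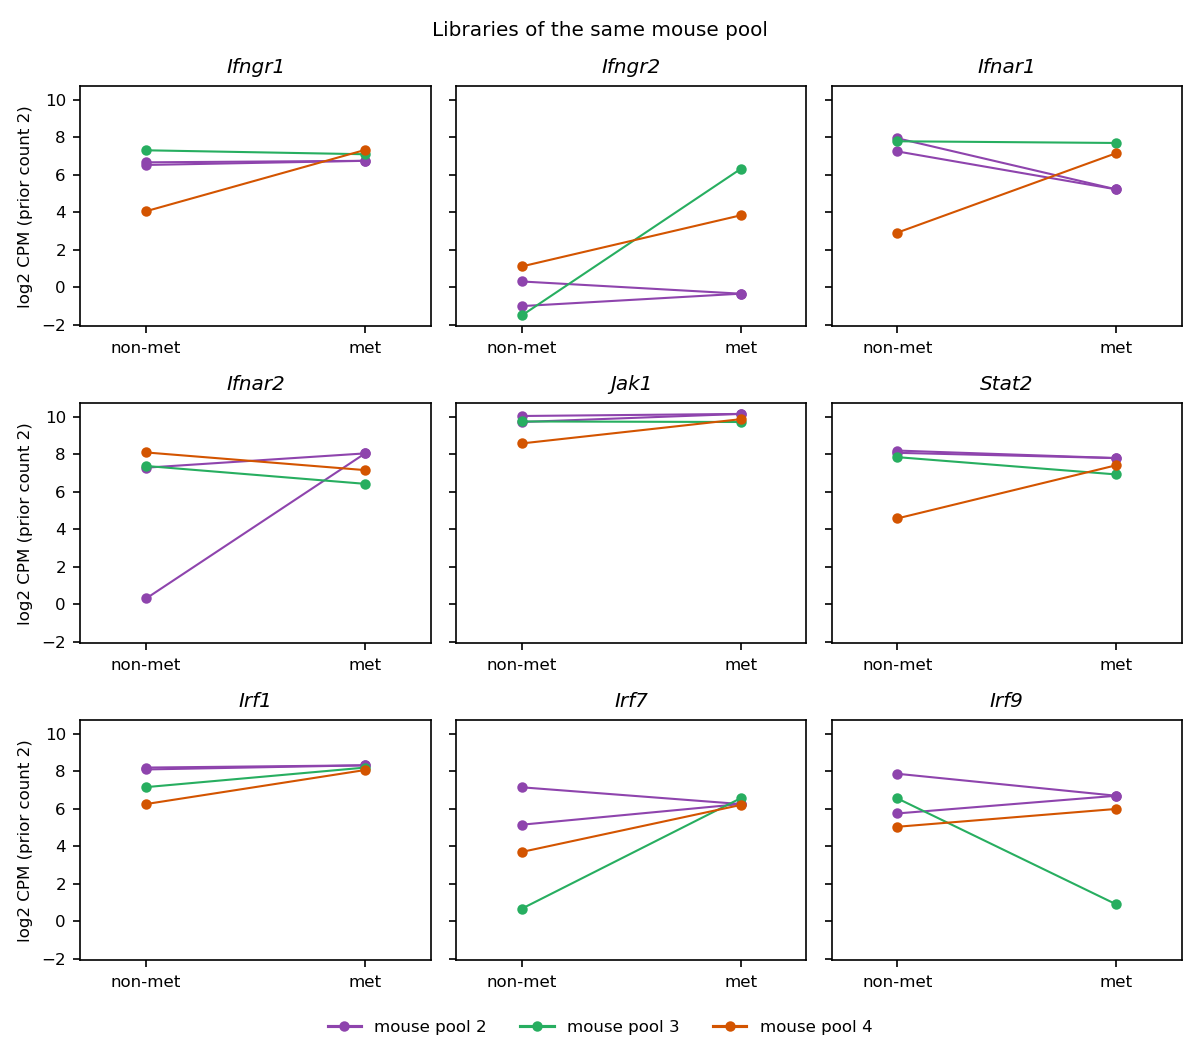
Log2 CPM (prior count 2) of the 9 genes in non-met and met libraries joined by mouse pool, with pool 2 contributing 2 lines to 1 met library. Irf1 is higher at the met end of every line, by 0.17 to 1.81 per pool, whereas Ifnar2 and Irf9 cross in both directions.

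Pairs of non-met libraries from the same mice show how far a gene can differ with no difference in region. In pool 1 the libraries non-met 1 and 5 differed by 0.20 to 1.23 on the log2 CPM scale over the 9 members. In pool 2 the libraries non-met 2 and 6 differed by 0.10 for Irf1, 0.12 for Stat2, 0.14 for Ifngr1, 0.32 for Jak1 and 0.70 for Ifnar1, but by 1.99 for Irf7 and 2.12 for Irf9. Ifnar2 had 1066 reads in one and 1 in the other, and Ifngr2 had 1 read in each. For Irf7 and Irf9 this gap between libraries of 1 pool exceeds the voomLmFit log2 fold changes of met against control, of 1.72 and -1.84, in size.

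Members did not rise and fall as a unit across libraries. Of 36 pairs, 23 had a Pearson r above 0 on log2 CPM over the 11 libraries, with a median of 0.16. The highest was 0.80 between Jak1 and Irf1 (rho 0.57, and 0.57 without the 2 libraries farthest from the median of Irf1). Stat2 with Ifnar1 had 0.78, which was 0.20 without 2 such libraries, and Ifngr1 with Ifnar1 had 0.70 and then -0.67, so that these rest on a few libraries. Irf1 with Irf7 had 0.54 and then 0.69. Stat2 and Irf9, partners in ISGF3, had 0.35. Non-met 4 held the lowest value of 5 of the 9 members. The 9 libraries of burdened mice share 4 pools, all libraries differ in depth, and no p is given.

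The genes most like each member in pattern, among 9522 with a mean of at least 10 CPM, were found by Pearson r over the same 11 libraries. For Irf1 they were Rsad2, a type I interferon target that encodes the antiviral protein viperin, with r 0.91 (rho 0.91, and 0.89 without the 2 libraries farthest from its median), and Fam8a1, also with r 0.91 (rho 0.92, then 0.93). Rsad2 stood at 39.9 and 3.01 CPM in the controls, at 27.2, 125, 0.622, 0, 1.06 and 163.5 CPM in non-met 1 to 6 and at 137, 72.0 and 70.7 CPM in met 1 to 3. The 2 non-met libraries with the most Rsad2 were the 2 with the most Irf1. For Stat2 they were Tagln2 (0.95, then 0.88) and Hint1 (0.93, then 0.78), and for Ifngr2 Rnf25 (0.96, then 0.96) and Zfp948 (0.94, then 0.93). The other matches were lower without 2 libraries. For Ifngr1 they were Cst3 (0.92, then 0.61) and Lman1 (0.91, then 0.39), for Ifnar1 Ppp1r8 (0.93, then 0.47) and Becn1 (0.93, then 0.53), for Jak1 Timm44 (0.94, then 0.67) and Tk2 (0.94, then 0.48), and for Irf7 Nacc2 (0.93, then 0.63) and Jag2 (0.92, then 0.53). For Ifnar2, Procr and Mideas (both 0.98) had 0.64 and 0.41 without 2 libraries, and for Irf9, 1810030O07Rik (0.92) and Ier3ip1 (0.91) had 0.78 and 0.28. Each is the best of 9522 genes over 11 libraries, and no likeness was tested.

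The rest of the pathway was described from lists, which like the members were drawn up with earlier results of these data known. The ligands were nearly unread. Ifng and Ifnb1 had no read in any library, 15 of 21 interferon genes had none at all and 17 never exceeded 3 reads. The exceptions were single libraries, namely Ifne, an epithelial type I interferon, with 168 reads in met 1, Ifnl2, a type III interferon, with 132 reads in met 2, Ifna16 with 54 reads in non-met 6 and Ifnz with 4 reads in non-met 3. None of the 21 passed the filter for testing.

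Among other receptors and kinases 0 of 5 tested genes were called by voomLmFit in any comparison, where it called 0.427% to 1.2% of all tested genes, among other IRFs 0 of 4, among inhibitors 0 of 15 and among upstream sensors and adaptors 0 of 13. At such shares these zeros do not set the lists apart from other genes. Jak2, the partner of Jak1 on the interferon-gamma receptor, stood at 296.5 to 433 CPM in the controls and 181 to 372 CPM in met ECs, and met against control gave -0.62 on the log2 scale (SE 0.37, adjusted p = 0.49). Tyk2, the partner of Jak1 on the type I receptor, ranged from 5.23 to 215 CPM in non-met ECs and from 29.8 to 61.2 CPM in met ECs.

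The other IRFs and the feedback inhibitors were likewise uncalled. Irf2, which competes with Irf1 for sites, ranged from 10.1 to 81.7 CPM in met and from 0 to 234 CPM in non-met ECs. Irf3, the sensor-activated relative of Irf7, had a log2 fold change of 0.23 (SE 0.84) in met against control. Irf8, a factor of myeloid cells, stood at 73.6 and 45.5 CPM in the controls and at 144, 75.2 and 16.8 CPM in met ECs, and had no read in non-met 5 and 6. Socs1, which blocks the JAKs, had no read in 4 of 11 libraries, and Usp18, which blocks the type I receptor at Ifnar2, had none in 3.

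The target lists had larger medians. Of 17 tested type I targets, voomLmFit called 0 in each comparison, and their median log2 fold change was 0.94 in met against non-met and 1.38 in met against control, beside 0.08 and -0.09 over all genes. Of 20 interferon-gamma targets, 19 had a log2 fold change above 0 in met against non-met with a median of 2.12, and 1 was called, where 0.427% of all tested genes were, beside 15 above 0 with a median of 1.14 and 2 called in met against control, where 1.2% were. In non-met against control, where 0.636% of all tested genes were called, 0 of 20 were and the median was -1.03, beside -0.33 over all genes. Their mean log2 CPM was 5.86, 6.79 and 7.04 in the met libraries, 5.35 and 4.84 in the controls and 3.51 to 4.76 in non-met libraries, so that every met library stood above every other library. The type I target means overlapped, at 3.22, 4.07 and 4.22 in met, 3.84 and 2.14 in the controls and 0.68 to 3.60 in non-met libraries. No test was made on these means. The lists were drawn up with earlier results of these data known, and the paper had already reported higher Cxcl10, a gene of the interferon-gamma list.

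The called targets were Cxcl10, Gbp4 and Iigp1. Cxcl10, a chemokine that draws T cells and restrains vessel growth, stood at 162, 131 and 228 CPM in met ECs and at 0 to 12.7 CPM in non-met ECs, a difference of 6.92 on the log2 scale (SE 1.20, voomLmFit adjusted p = 0.0029, limma-trend adjusted p = 0.73). Gbp4, a guanylate-binding protein of cell-autonomous defence, stood at 861, 1149 and 833 CPM in met ECs and at 159 and 152 CPM in the controls, a difference of 2.52 on the log2 scale (SE 0.41, voomLmFit adjusted p = 5.7e-04, limma-trend adjusted p = 0.14). Iigp1, an immunity-related GTPase, stood at 567, 736 and 406 CPM in met ECs and at 158 and 225 CPM in the controls, a difference of 1.5 on the log2 scale (SE 0.34, voomLmFit adjusted p = 0.022, limma-trend adjusted p = 0.98). These 3 calls were thus made by voomLmFit and not by limma-trend.

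**Figure D5:**
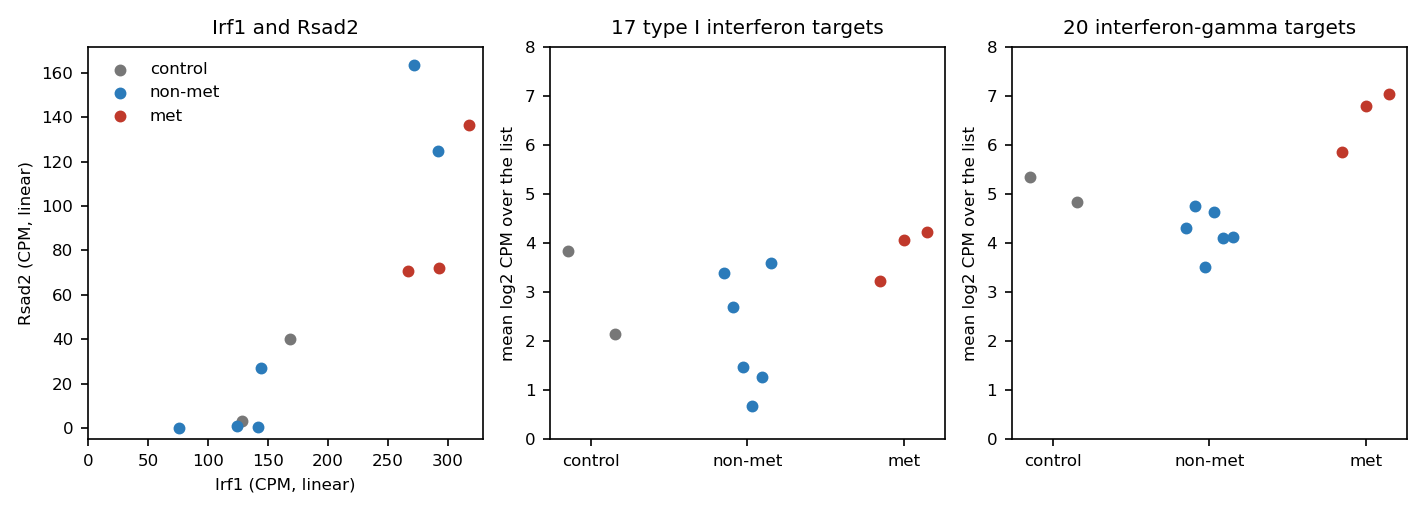
Left, CPM of Irf1 and Rsad2 in each library on linear axes. Middle and right, mean log2 CPM of 17 type I and 20 interferon-gamma targets per library by group, where the met libraries reach 5.86 to 7.04 for the interferon-gamma targets and the non-met libraries 3.51 to 4.76.

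Of the members, Irf1 had an r of 0.77 with the mean of the type I targets over the 11 libraries (rho 0.67, and 0.54 without the 2 farthest libraries) and of 0.54 with that of the interferon-gamma targets (rho 0.55, then 0.36). Irf7 had 0.58 (rho 0.50, then 0.82) and 0.48 (rho 0.20, then 0.39). Jak1 had 0.73 (rho 0.48, then 0.15) and 0.31 (rho 0.37, then 0.27). Irf9 had -0.33 (rho -0.32, then -0.50) and -0.55 (rho -0.33, then -0.15). With the summed granulocyte markers Irf9 had 0.53 (rho 0.46, then 0.72), Irf1 -0.24 and Irf7 0.06. With log2 depth Ifngr1 had 0.63, which was 0.01 without the 2 libraries farthest from the median depth.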

How the data were processed

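RNA from 11 libraries of sorted CD31hi EMCNhi ECs was analysed from the table of raw counts per gene that the authors deposited. Per the labels and the study's methods, the authors aligned reads with Rsubread to mm10, used featureCounts to assign them to Entrez genes, and removed 1 further library with poor mapping. Of 27179 rows, 23463 were kept after leaving out 1886 without a name in RefSeq or GENCODE, 36 of ribosomal RNA and 1794 of predicted genes, which together held 1.94 to 15.7% of a library's counts. The 11 files of single libraries held the same values. Total counts ran from 733342 to 19539761, so that 3 reads stood for 0.147 to 5.43 CPM, and such limits cover counting error only. Replicates are separate sorted samples from pools of mice.

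Genes were filtered by edgeR's filterByExpr (minimum count 10, minimum total 15), scaled by TMM and tested in 1 fit over the 3 groups with voomLmFit with sample weights, with Benjamini-Hochberg adjustment (R 4.3.3, edgeR 4.0.16, limma 3.58.1). Alternatives were the quasi-likelihood test, DESeq2 1.42.0, limma-trend, other scalings and filters, the mouse pool as a block, libraries of 1 pool summed, 2 groups only, and each library left out. Added after the data were seen were a term for 2 sets of libraries, split at 6 CPM of summed Krt8, Krt18 and Krt19, a fit within the libraries above that split, and limma-trend with the pool block. The code of the fits was run on simulated counts with less spread than these libraries, which checks the code and not its power here. CPM and RPKM were computed here from the counts, with a prior count of 2 on log scales. Exact permutation tests were two-sided and took each library as separate, without regard to pools. The labels' mouse pools pair met with non-met libraries, although deviations from group means barely correlated within pools (Spearman -0.02 to 0.022 over all tested genes, beside -0.05 to 0.071 for other pairs). Besides the 9 members, the genes named were those of the pathway lists called in a comparison, up to 5 in each direction, chosen partners (Ifng, Ifnb1, Tyk2, Jak2, Socs1, Usp18, Irf2, Irf3, Irf8, and 1 gene that is not reported here) and the 2 genes most like each member. Members and lists were chosen with earlier results of these data known.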

Additional observations from a re-analysis of the deposited data

Results flagged for a closer look

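Within the 6 non-met libraries, 4 of the 9 members had a library far from the others on the log2 CPM scale, by a gap to the next library that exceeded 0.625 of the group's range. Ifngr1 stood at 4.06 in non-met 4 with the next library at 6.52, Ifnar1 at 2.92 in non-met 4 with the next at 6.80, and Stat2 at 4.58 in non-met 4 with the next at 7.28. Ifnar2 stood at 0.32 in non-met 6 with the next at 6.50. For independent, normally spread values the rule would mark about 1 in 20 such groups. Its share over all tested genes was not computed, so 4 of 9 is not read as an excess in the members. The 4 flagged values rested on 9, 4, 13 and 1 reads. Non-met 4 and 6 were the 2 libraries with the fewest counts, 733342 and 1146421, and in non-met 4 Jak1, Irf1 and Irf9 were also at their lowest among non-met libraries. Ifnar2, by contrast, had its highest CPM of all libraries in non-met 4. The part of depth in these values was not tested.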

How the results depend on the processing

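No member was called under any of 28 alternatives in met against non-met or 25 in each other comparison, and the smallest adjusted p over all these fits was 0.095. The direction was kept in 667 of 702 member fits and turned in 35, all uncalled. In met against non-met, log2 fold changes turned for Ifngr1 (-0.008 by edgeR, -0.18 by DESeq2), Ifngr2 (-0.49 to 3.74 with each library left out, lowest without met replicate 2), Ifnar1 (-0.26 by edgeR, -0.43 by DESeq2, -0.018 by limma-trend, -0.031 without sample weights, -0.57 with the replicate block by pool, and -0.44 to 0.50 with each library left out, negative without non-met replicate 4 and without met replicates 2 and 3), Ifnar2 (-0.29 with the replicate block, -0.11 with libraries of 1 pool summed, and -0.13 to 1.45 with each library left out, negative without non-met replicate 6) and Stat2 (0.038 by limma-trend, 0.44 by limma-trend with the block, 0.24 by limma-trend with the term for library sets). In met against control they turned for Ifnar2 (0.088 by edgeR, 0.043 by DESeq2, 1.05 and 1.40 with the term for library sets by voomLmFit and limma-trend, and -0.54 to 0.12 with each library left out, positive without control replicate 1 and without met replicate 2) and Irf9 (0.005 by limma-trend with that term, and -2.81 to 0.27 with each library left out, positive without met replicate 2). In non-met against control they turned for Irf1 (-0.11 to 0.49 with each library left out, negative without non-met replicate 2) and Irf7 (-0.068 without sample weights, -0.24 with library size scaling, -0.02 with a minimum mean of 5 CPM, -0.50 with pools summed, and -0.62 to 0.80 with each library left out, negative without control replicate 2 and without non-met replicates 1, 2, 5 and 6). Library size scaling moved the median gene by -0.17 in met against control and by -0.22 in non-met against control, and RLE scaling by -0.18 in met against non-met. The cause of these turns was not tested.

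The counts of all genes called moved more. In met against non-met, 51 genes became 16 by edgeR, 324 by DESeq2, 2 by limma-trend, 79 with no filter, 27 with the replicate block (12 by limma-trend), 24 with pools summed, 9 and 0 with the term for library sets by voomLmFit and limma-trend, 13 within libraries with keratin reads, and 16 to 87 with each library left out. In met against control, 143 became 10, 228 and 9 by the same 3 tools, 274 without sample weights, 429 with no filter, 55 with pools summed, 80 with 2 groups only, 4 and 0 with that term, and 36 to 293 with each library left out. In non-met against control, 76 became 14, 266 and 8, 140 without sample weights, 160 with library size scaling, 184 with no filter, 35 with a minimum mean of 5 CPM, 33 with pools summed, 20 and 1 with that term, and 33 to 228 with each library left out. The share of higher calls changed too, from 34 of 51 to 3 of 27 with the block and 21 of 324 by DESeq2 in met against non-met. In non-met against control it went from 22 of 76 to 262 of 266 by DESeq2. Searching the 250 bases before the start alone gave shares of 7.13% for the IRF core and 7.02% for the gamma-activated letters. Sample weights were highest in non-met 4 (1.96), the shallowest library. With 2 controls, the limma-trend intervals of every member but Jak1 reached a several-fold rise, a several-fold fall or both. The 6 values at 3 reads or fewer lay in Ifngr2 and Ifnar2. For Irf1 the interval ran from -0.46 to 2.24 in met against non-met and from -0.76 to 2.73 in met against control. A several-fold rise of Irf1 thus lay within it and a several-fold fall outside. Within such intervals the size of a change was not settled at this depth and number of libraries.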
